A study of Homo sapiens with 6 samples.

Results

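Kinesins are ATP-driven motor proteins that move along microtubules or take them apart, and 43 genes of the family were among the 14959 genes of the deposited expression table. They were chosen by symbol alone, as the genes named KIF or KIFC with a number and the kinesin light chains named KLC with a number. By role they were 14 mitotic kinesins, 15 transport kinesins, 4 kinesin light chains, 6 ciliary and signalling kinesins, 3 other kinesins (KIF12, KIF26A and KIF26B) and KIF1BP, a kinesin binding protein that is no motor itself. KIF1A, KIF2B, KIF19 and KIF25 were not analysed here. The libraries were made from UM-SCC1 cells, an established line from a human head and neck squamous cell carcinoma, transfected with miR-204-5p mimics (3 libraries) or control mimics (3 libraries). Sample titles number the libraries of each group as replicates 1 to 3 and do not say what a replicate was. The study's general transfection methods give 48 h between transfection and harvest. A mimic is a synthetic duplex RNA that the cell handles like the mature microRNA. Both groups were the same line without further treatment, so a single line stands for the tumour, and the level of the microRNA itself was not analysed here.

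Kinesins carry a motor domain that splits ATP to step along the microtubule. Transport kinesins such as kinesin-1, built from KIF5 heavy chains and KLC light chains, haul vesicles, mitochondria and other cargo mostly toward the cell edge. Mitotic kinesins slide, crosslink or shorten spindle microtubules, hold chromosomes at the equator and build the bridge that is cut at the end of cell division, and their mRNAs rise in G2 and mitosis in cycling cells. Ciliary and signalling kinesins act in cilia or hold signalling proteins on microtubules.

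A microRNA pairs with mRNA mainly through its seed, bases 2 to 8. The mature strand is shown with the seed in capitals, beside hsa-miR-211-5p, the other family member with that seed, and both sequences come from RefSeq on GRCh38.p14. The gene of hsa-miR-204-5p lies on the minus strand, with the mature bases at chr9:70810031-70810052.
hsa-miR-204-5p: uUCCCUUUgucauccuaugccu
hsa-miR-211-5p: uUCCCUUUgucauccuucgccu
The mRNA sites sought were AAAGGGAA (8mer), AAAGGGA (7mer-m8) and AAGGGAA (7mer-A1). They were sought on the mRNA strand, and a shorter class was counted only where it was not within an 8mer.

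Stretches of 3'UTR from GENCODE 29 on GRCh38 are shown for 6 genes, because these are the 5 transport kinesins that fell and KIF9, a ciliary kinesin that rose. The match to the seed is in capitals. KIF5B, the kinesin with the largest decrease on the scale used below, holds no 7-base match in its 3'UTR of 2527 bases or in its coding sequence, and its 6-base match AAGGGA in exon 26 at chr10:32010778-32010783 is given in place of one.
KIF5B: tcttagtttAAGGGAgtttggaaa
KIF16B: tattctgcaAAAGGGAttttttgat
KIF1C: tgctaggagAAGGGAAgacgcccga
KIF3C: tgcctccagAAGGGAAggtagccag
KIF1B: ctttgtgtgAAGGGAAatgccaagg
KIF9: agagaccagAAAGGGAtgaggcaga
The KIF16B site lies in exon 26 at chr20:16272667-16272673, that of KIF1C in exon 23 at chr17:5024198-5024204, that of KIF3C in exon 8 at chr2:25928636-25928642, that of KIF1B in exon 49 at chr1:10377350-10377356 and that of KIF9 in exon 21 at chr3:47228049-47228055. The KIF1B site is outside the transcript that the table lists for the gene, whose own 3'UTR of 3950 bases holds a 7mer-m8 match, and the other sites are within theirs.

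Expression was given in FPKM, which is a fragment number divided by transcript length in kb and by the mapped total in units of 1e6, so levels are per length. Which transcript lengths were used is not stated, and this limits comparisons of level between genes. Depth inferred from the steps in low values was 13.0 to 15.9 M (1e6) fragments with miR-204-5p mimics and 13.9 to 16.4 M with control mimics, and a single fragment per kb amounted to 0.0610 to 0.0767 FPKM. The 8 squamous epithelial markers summed to 837 to 930 FPKM with miR-204-5p mimics and 968 to 1002 FPKM with control mimics, where 5 were lower and 2 higher. By the call defined below 87.5% of these markers were called, against 40.8% of all genes. Their single changes ranged from −1.01 to 0.81 on the log2 scale, which the sum does not show. The 7 fibroblast and blood cell markers in the table summed to 45.6 to 51.0 and 43.4 to 49.7 FPKM, most of it HBB and CD14, and PTPRC, the pan-leukocyte marker, stayed at or below 0.546 FPKM. Of these 7 genes COL1A2 and PDGFRB, genes of mesenchymal cells, were called higher (0.605 against 0.322 FPKM and 0.359 against 0.177 FPKM) and CD14, a monocyte marker, lower (76.3% of control), with limma adjusted p of 0.00245, 0.00628 and 0.00407, and their part in the kinesin values was not tested. Changes are the difference in log2(FPKM + 1) of miR-204-5p mimics minus control mimics, which understates the change of low genes. A gene is called where the two-sided limma test gave a Benjamini-Hochberg adjusted p-value under 0.05 over all genes of the table.

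Among the 43 family genes, 15 rose, 6 fell and 22 were not called, so 48.8% were called against 40.8% of all genes tested. Of all genes 23.9% were called higher and 16.8% lower. The median log2 fold change of the family was 0.04 against 0.03 over all genes, and the family ranged from −0.83 for KIF5B to 0.76 for KIF4A. In 17 members all libraries with miR-204-5p mimics lay above all control libraries, and in 13 they lay below. Groups did not overlap in this way for 53.6% of all genes, with the mimic libraries above in 30.9% and below in 22.7%. A mean of at least 1 FPKM over all libraries was reached by 34 members, among them all 21 that were called. Of these 34 members 61.8% were called, against 47.8% of the 11504 genes at that level. In bulk RNA, fewer cells of a type or stage and less RNA per cell cannot be told apart.

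**Figure D1:**
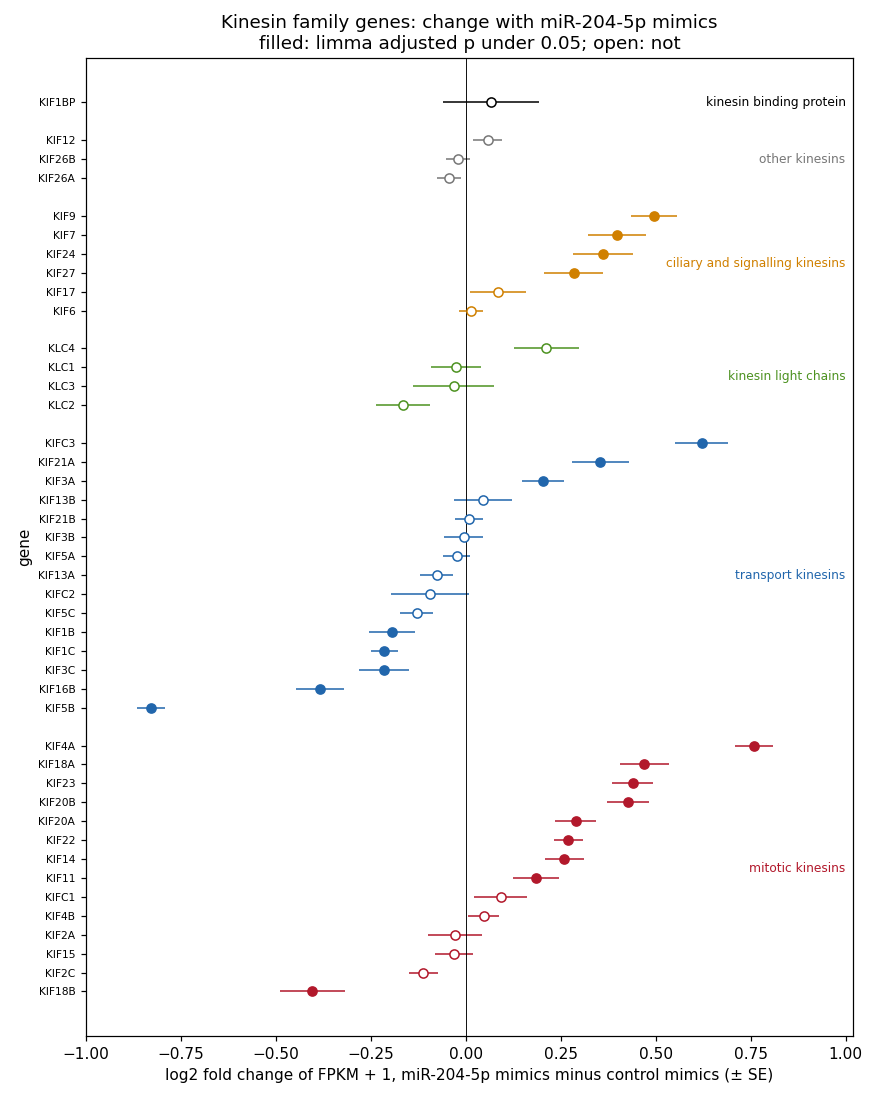
Log2 fold change of FPKM + 1 (miR-204-5p mimics minus control mimics, horizontal axis) of each of the 43 family genes, grouped by role; points are limma estimates, bars the standard error, filled points adjusted p under 0.05. Mitotic kinesins lie mostly right of 0 with KIF18B at −0.40, transport kinesins spread from −0.83 to 0.62, and all 4 light chains are open.

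Mitotic kinesins were more often called higher than lower with miR-204-5p mimics. Of the 14 members 8 rose, 1 fell and 5 were not called, with a median log2 fold change of 0.22. Of the 13 members with a mean of at least 1 FPKM 69.2% were called, against 47.8% of genes at that level. The 8 that rose were KIF4A, KIF18A, KIF23, KIF20B, KIF20A, KIF22, KIF14 and KIF11, and the one that fell was KIF18B. Background shares of calls are those of all genes given above, and the members are not replicates of each other, since many are known to be expressed at the same cell cycle stage.

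KIF4A, a chromokinesin that organizes the central spindle with PRC1, had the largest increase in the family on the log2(FPKM + 1) scale. The gene (ENSG00000090889) is listed on the plus strand at chrX:70290090-70420832 with 31 exons. Its FPKM was 19.4, 20.6 and 19.8 with miR-204-5p mimics and 11.0, 11.1 and 11.98 with control mimics. The lowest mimic library was well above the highest control library. The means were 19.9 ± 0.644 and 11.4 ± 0.538 (SD, n = 3 each), 175% of control (log2 fold change 0.76, SE 0.050, limma adjusted p = 0.000138). KIF4B, the intronless copy of KIF4A, was listed at 0.0478 to 0.139 FPKM in all libraries, and reads of 2 such similar genes may be split between them.

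KIF18A, which damps chromosome movement at the spindle equator, measured 9.02, 9.67 and 9.30 FPKM with miR-204-5p mimics against 6.21, 6.15 and 7.03 FPKM with control mimics. The groups did not overlap, and the log2 fold change was 0.47 (SE 0.0643, limma adjusted p = 0.00185). KIF18B, a plus-end motor that shortens astral microtubules and the closest relative of KIF18A, went the other way. It measured 12.6, 13.7 and 14.8 FPKM with miR-204-5p mimics against 20.6, 17.3 and 17.6 FPKM with control mimics, 74.2% of control. Every mimic library was below every control library, and the log2 fold change was −0.40 (SE 0.0856, limma adjusted p = 0.0104). The 2 relatives thus differed in the sign of their calls, and the difference between them was not tested.

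KIF23, KIF20B and KIF20A, kinesins of cytokinesis, were higher. KIF23, the motor of the centralspindlin complex, measured 20.8, 21.9 and 19.8 FPKM with miR-204-5p mimics and 15.7, 14.3 and 15.3 FPKM with control mimics. KIF20B, which acts at the midbody, measured 11.1, 12.5 and 11.7 FPKM against 8.32, 8.38 and 8.75 FPKM. KIF20A, which brings the chromosomal passenger complex to the central spindle, measured 27.5, 27.8 and 25.9 FPKM against 23.3, 20.8 and 21.7 FPKM. Groups did not overlap for any of these genes. Their log2 fold changes were 0.44 (SE 0.0544, limma adjusted p = 0.00125) for KIF23, 0.43 (SE 0.0557, adjusted p = 0.00152) for KIF20B and 0.29 (SE 0.0540, adjusted p = 0.00634) for KIF20A. The transcript listed for KIF20A has only 631 bases, and 132 of them (20.9%) also belong to an exon of BRD8 on the opposite strand, whose reads cannot be told apart where strand is not recorded.

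The chromokinesin KIF22 measured 40.4, 41.4 and 40.1 FPKM with miR-204-5p mimics and 33.2, 32.8 and 34.7 FPKM with control mimics (log2 fold change 0.27, SE 0.0374, limma adjusted p = 0.00194). KIF14, a partner of the citron kinase in cytokinesis, measured 14.8, 16.6 and 15.5 FPKM against 13.1, 12.9 and 12.7 FPKM (log2 fold change 0.26, SE 0.0519, limma adjusted p = 0.00826). Both genes were at 121% of control without overlap. KIF11, also called Eg5, the plus-end motor that pushes spindle poles apart, measured 21.2, 24.1 and 21.8 FPKM against 20.5, 19.0 and 19.1 FPKM. Its groups did not overlap, but its log2 fold change of 0.18 (SE 0.0600) was close to the threshold (limma adjusted p = 0.0486). That call was lost without miR-204-5p mimics replicate 2 or 3 and without control mimics replicate 1, 2 or 3, with adjusted p from 0.0532 to 0.133. It was also lost with the libraries scaled to equal medians (0.105), by quantiles (0.0920) or with eBayes without trend (0.0582).

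The other mitotic kinesins were not called. KIF2C, the microtubule depolymerase of centromeres, was the most abundant mitotic kinesin with 46.7 to 49.1 FPKM with miR-204-5p mimics and 50.7 to 53.4 FPKM with control mimics, and the mimic libraries were all lower (log2 fold change −0.11, limma adjusted p = 0.0561). With the libraries scaled to equal medians or by quantiles it passed the threshold (adjusted p = 0.0183 and 0.0358). KIF15, a second plus-end motor of the spindle, was at 5.63 to 5.94 FPKM in all libraries (adjusted p = 0.655). KIF2A, a depolymerase of spindle poles, was at 8.10 to 9.65 FPKM (adjusted p = 0.778), and KIFC1, a minus-end motor that clusters spindle poles, at 16.4 to 19.4 FPKM (adjusted p = 0.337).

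Partner proteins of the mitotic kinesins did not move one way. Of 16 genes 3 rose, 4 fell and 9 were not called, with a median log2 fold change of −0.02. The called share of 43.75% was near the 40.8% of all genes, of which 23.9% were called higher and 16.8% lower. All 16 had a mean of at least 1 FPKM, a level at which 47.8% of genes were called. CDCA8, which encodes the borealin subunit of the chromosomal passenger complex, measured 14.2, 16.0 and 15.4 FPKM with miR-204-5p mimics against 33.0, 31.9 and 33.5 FPKM with control mimics (log2 fold change −1.06, limma adjusted p = 6.74e-05). HMMR, a spindle-associated protein, was at 9.87 ± 0.460 against 6.65 ± 0.709 FPKM (log2 fold change 0.51, adjusted p = 0.00291). AURKB, the kinase of the passenger complex, fell by 0.35 on the log2 scale (adjusted p = 0.0223), and CIT, the citron kinase, fell by 0.32 (adjusted p = 0.0159). The AURKB call was lost without miR-204-5p mimics replicate 1 or 2 (adjusted p = 0.0701 and 0.0749), and the CIT call without control mimics replicate 1 or 2 (0.0511 and 0.0517). CENPE, the kinesin-7 of kinetochores that is not among the KIF symbols, was at 6.20 ± 0.236 and 6.24 ± 0.228 FPKM (adjusted p = 0.935). RACGAP1, the other centralspindlin subunit, BUB1B and PLK1 were also called, and are named here after their values were seen (log2 fold changes 0.24, 0.18 and −0.13). BUB1B lost its call in 4 and PLK1 in 5 of the 6 fits that left out a library, BUB1B keeping it without miR-204-5p mimics replicate 1 or control mimics replicate 3 and PLK1 without miR-204-5p mimics replicate 2 (adjusted p up to 0.0818 and 0.0973). BUB1B also lost it with equal medians (0.0623) and PLK1 with eBayes without trend (0.0582). When either of control mimics replicates 1 and 2 or miR-204-5p mimics replicate 1 was left out, 2 partners were called lower.

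Markers of proliferation moved in both directions beside the mitotic kinesins. Of 10 genes, CDK1 and CCNB1 were higher (log2 fold changes 0.32 and 0.17) and CCNA2, TOP2A and FOXM1 were lower (−0.61, −0.55 and −0.45), each by limma at an adjusted p under 0.05. These 5 calls among 10 genes were near the background, since 40.8% of all genes were called, 23.9% higher and 16.8% lower. All 10 had a mean of at least 1 FPKM, a level at which 47.8% of genes were called. The summed level of the 10 markers was 452 to 468 FPKM with miR-204-5p mimics and 481 to 499 FPKM with control mimics. The summed level of the 14 mitotic kinesins was 254, 271 and 262 FPKM with miR-204-5p mimics against 236, 227 and 233 FPKM with control mimics, 113% of control. The marker sum was thus lower and the kinesin sum higher in every mimic library. The part of cell cycle stage in the kinesin values was not tested.

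**Figure D2:**
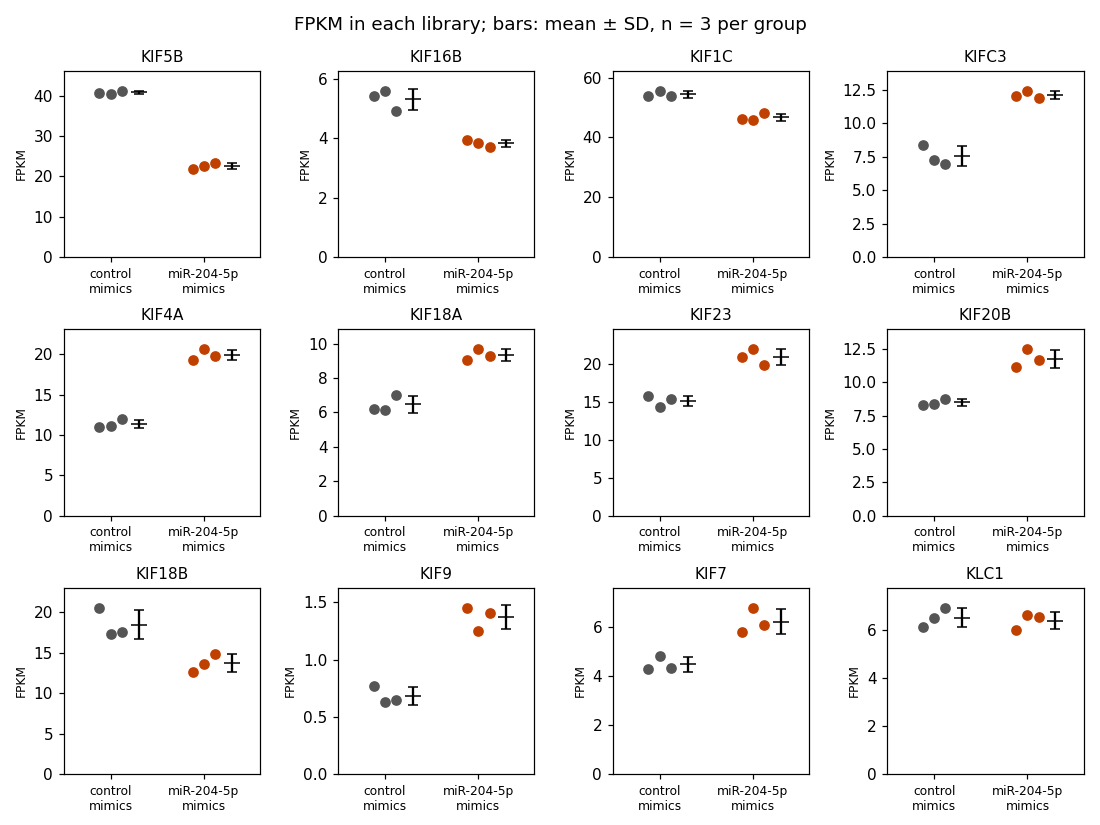
FPKM of 12 kinesin family genes in each library (points; grey control mimics, orange miR-204-5p mimics) with the mean and SD of 3 libraries beside them; all axes start at 0. KIF5B has its control libraries near 41 and its mimic libraries near 22, KIF4A shows the reverse order, and the points of KLC1 overlap.

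Promoters of mitotic kinesins shared sequence elements of cell cycle genes. The bases from 250 before to 50 after the gene start were taken from RefSeq (GRCh38.p14) for 33 of the 43 members, among them all 14 mitotic kinesins; there was no entry for KIF13B, KIF1BP, KIF21B, KIF26B, KIF27, KIF5A, KIFC2, KIFC3, KLC2 or KLC4. The letters TTTGAA, the core of the CHR element known from genes of G2 and mitosis, were found on either strand in 10 of 14 mitotic kinesins (71.4%), in 1 of 10 transport kinesins, and in none of 5 ciliary kinesins or 2 light chains. They were in 9.91% of the 11452 promoters of genes in the table and in 15.4% of all 27305 promoters. CCAAT, the letters of the NF-Y box, was found on either strand in 11 of 14 mitotic kinesins (78.6%) and 3 of 10 transport kinesins (30.0%), against 36.1% of promoters of genes in the table. KIF4A and its copy KIF4B held both motifs in nearly the same sequence and are counted apart, so these counts are not all independent. The search was added after the values had been seen, a match is no proof of binding, and no CCAAT match overlapped a TTTGAA match in a member. The stretches around 6 matches are shown with the CHR hexamer in capitals, on the strand of the gene, because they belong to the kinesin with the largest increase and its KIF4B copy, to the relatives KIF18A and KIF18B with opposite calls, to KIF23, and to KIF11 as an example of a match on the other strand. KIF5B and KIF20B, KIF14, KIF15 and KIFC1 also held the hexamer and are not shown. The KIF11 match reads TTCAAA because the hexamer is on the other strand.
KIF4A: ccgggacggaTTTGAAacttggcggt
KIF4B: ctgggagggaTTTGAAacttggcggt
KIF18A: gtggcttgggTTTGAAtattgtggtt
KIF18B: gcccggctaaTTTGAAcgcaaggcgc
KIF23: gattggcccgTTTGAAatgcgccagg
KIF11: ctgtctctttTTCAAAttgaggcgcc
The hexamers lie at chrX:70290070-70290075 in KIF4A, chr5:155013758-155013763 in KIF4B, chr11:28108161-28108166 in KIF18A, chr17:44947766-44947771 in KIF18B, chr15:69414294-69414299 in KIF23 and chr10:92593102-92593107 in KIF11. KIF18A, which rose, and KIF18B, which fell, both carried the hexamer on the gene's strand. Among the mitotic kinesins with it 6 of 10 rose and 1 fell, and among the 4 without it (KIF20A, KIF22, KIF2A and KIF2C) 2 rose.

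**Figure D3:**
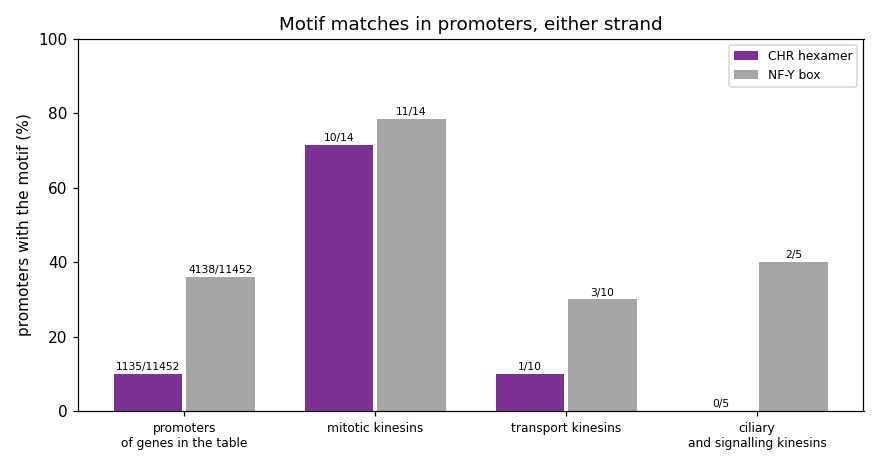
Share of promoters (percent, axis from 0 to 100) with the CHR hexamer (purple) or the NF-Y box (grey) on either strand, with the counts above each bar. The hexamer is in 10 of 14 mitotic kinesins, with KIF4A and its copy KIF4B both counted, and in 9.91% of the promoters of genes in the table.

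Transport kinesins were split in direction. Of 15 members 5 fell (KIF5B, KIF16B, KIF3C, KIF1C and KIF1B), 3 rose (KIFC3, KIF21A and KIF3A) and 7 were not called, with a median log2 fold change of −0.08. The called share was 53.3% against 40.8% of all genes. Of the 12 members with a mean of at least 1 FPKM 66.7% were called, against 47.8% of genes at that level. All mimic libraries lay below all control libraries in 7 members and above them in 3. Over all genes they lay below in 22.7% and above in 30.9%. Only 3 members were called lower without miR-204-5p mimics replicate 1 or 2 and without control mimics replicate 1 or 2.

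KIF5B, the ubiquitous heavy chain of kinesin-1, had the largest decrease in the family on the log2(FPKM + 1) scale. The gene (ENSG00000170759) is listed on the minus strand at chr10:32009010-32056431 with 26 exons. It measured 21.9, 22.5 and 23.2 FPKM with miR-204-5p mimics against 40.8, 40.4 and 41.2 FPKM with control mimics. The groups were far apart next to their spread, with means of 22.5 ± 0.647 and 40.8 ± 0.414 FPKM (SD, n = 3 each), 55.2% of control. Its log2 fold change was −0.83 (SE 0.0367, limma adjusted p = 4.99e-05) and stayed between −0.85 and −0.81 when any one library was left out. The neuronal heavy chains were low. KIF5C measured 0.336, 0.326 and 0.389 FPKM against 0.442, 0.508 and 0.482 FPKM, a log2 fold change of −0.13 that missed the threshold (adjusted p = 0.0518) and passed it after scaling to equal medians or by quantiles (0.0366 and 0.0173). KIF5A was at or below 0.0486 FPKM. KIF5B held 98.3% to 98.8% of the summed FPKM of the heavy chains in every library, so the kinesin-1 heavy chain sum was 22.3, 22.8 and 23.6 FPKM against 41.3, 40.9 and 41.7 FPKM.

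None of the 4 kinesin light chains, which link the KIF5 heavy chains to cargo, was called, with a median log2 fold change of −0.03. By an unadjusted limma p under 0.05 1 light chain passed. KLC1 measured 5.99, 6.63 and 6.56 FPKM with miR-204-5p mimics against 6.13, 6.51 and 6.94 FPKM with control mimics, with overlapping groups (log2 fold change −0.03, adjusted p = 0.791). The transcript listed for KLC1 has 540 bases, and 451 of them (83.5%) also belong to AL139300.1 on the same strand. It also shares 72 bases (13.3%) with BAG5 on the opposite strand. KLC2, the most abundant light chain, measured 24.6, 27.9 and 29.6 against 32.1, 29.9 and 30.3 FPKM, all mimic libraries lower (log2 fold change −0.17, adjusted p = 0.107). It passed the threshold without miR-204-5p mimics replicate 3 (adjusted p = 0.0499). KLC4, at 5.96, 4.87 and 5.63 against 4.84, 4.21 and 4.73 FPKM, passed it without miR-204-5p mimics replicate 2 (log2 fold change 0.21, adjusted p = 0.0942, and 0.0456 without that library). On the opposite strand the listed transcript of KLC4 shares 329 bases (9.13%) with CUL7 and 373 (10.3%) with MRPL2. That of KLC2 shares 88 bases (15.7%) with the antisense gene AP001107.4. KLC3 was at 7.62 to 9.98 FPKM in all libraries (adjusted p = 0.840). The 4 light chains summed to 44.7, 47.0 and 50.5 FPKM against 50.7, 50.6 and 49.6 FPKM, 94.3% of control, whereas the heavy chains were at 55.4%. The light chain sums overlapped between groups and the heavy chain sums did not, and the difference between heavy and light chains was not tested.

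The other transport kinesins that fell moved less. KIF16B, which carries early endosomes, measured 3.93, 3.85 and 3.70 FPKM with miR-204-5p mimics against 5.40, 5.59 and 4.91 FPKM with control mimics, 72.2% of control (log2 fold change −0.38, SE 0.0644, limma adjusted p = 0.00419). KIF1C, a fast vesicle motor and the most abundant transport kinesin, measured 46.1, 46.0 and 48.1 FPKM against 53.7, 55.6 and 53.8 FPKM (log2 fold change −0.21, SE 0.0359, limma adjusted p = 0.00417). Neither gene's groups overlapped. KIF1B, which carries mitochondria and synaptic vesicle precursors, measured 6.30, 6.63 and 6.97 FPKM against 8.03, 7.87 and 7.31 FPKM, also without overlap (log2 fold change −0.20, SE 0.0608, limma adjusted p = 0.0421). Its call was lost without miR-204-5p mimics replicate 1 or 2 or control mimics replicate 1 or 2, with adjusted p from 0.0982 to 0.120.

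The kinesin-2 chains did not move together. KIF3C, the heavy chain that pairs with KIF3A in place of KIF3B, measured 7.12, 6.67 and 7.01 FPKM with miR-204-5p mimics against 8.79, 8.33 and 7.53 FPKM with control mimics (log2 fold change −0.22, SE 0.0665, limma adjusted p = 0.0409). KIF3A, the chain common to both kinesin-2 forms, measured 9.04, 9.39 and 9.01 against 8.05, 7.32 and 8.10 FPKM (log2 fold change 0.20, SE 0.0557, limma adjusted p = 0.0272). KIF3B was the most abundant of them with 29.4, 33.1 and 32.2 FPKM against 31.7, 32.1 and 31.2 FPKM (adjusted p = 0.941). KIF3A and KIF3C groups did not overlap and KIF3B groups did, and the 3 chains summed to 45.5 to 49.1 and 46.8 to 48.6 FPKM, 99.9% of control. The KIF3C call was lost without miR-204-5p mimics replicate 1, 2 or 3 or control mimics replicate 1 or 2 (adjusted p from 0.0705 to 0.116), and the KIF3A call without miR-204-5p mimics replicate 1, 2 or 3 or control mimics replicate 2 (0.0547 to 0.0836) and with equal medians (0.0618). KIFAP3, the non-motor subunit that links kinesin-2 to cargo, measured 7.02, 6.89 and 6.40 FPKM against 4.40, 4.93 and 4.94 FPKM, 142% of control (log2 fold change 0.43, limma adjusted p = 0.0028).

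KIFC3, a minus-end kinesin of epithelial junctions and apical transport, had the largest increase among transport kinesins. It measured 12.003, 12.4 and 11.9 FPKM with miR-204-5p mimics against 8.37, 7.25 and 6.97 FPKM with control mimics, 161% of control (log2 fold change 0.62, SE 0.0707, limma adjusted p = 0.000905). KIF21A, a kinesin-4 that limits microtubule growth at the cell cortex, measured 3.97, 4.32 and 4.58 FPKM against 3.41, 2.91 and 3.10 FPKM, 137% of control (log2 fold change 0.35, SE 0.0750, limma adjusted p = 0.0104). The groups overlapped for neither gene.

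The remaining transport kinesins were not called. KIF13A, a recycling endosome motor, measured 9.72, 10.1 and 10.05 FPKM against 10.4, 10.7 and 10.6 FPKM, with every mimic library lower (adjusted p = 0.208). KIF13B measured 4.86 to 5.85 FPKM (adjusted p = 0.680) and KIFC2 27.1 to 36.6 FPKM (adjusted p = 0.501) over all libraries, with overlap between groups. The transcript listed for KIFC2 shares 791 bases (22.2%) with FOXH1 on the opposite strand. KIF21B was at 0.0129 to 0.0787 FPKM, a level of few fragments.

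**Figure D4:**
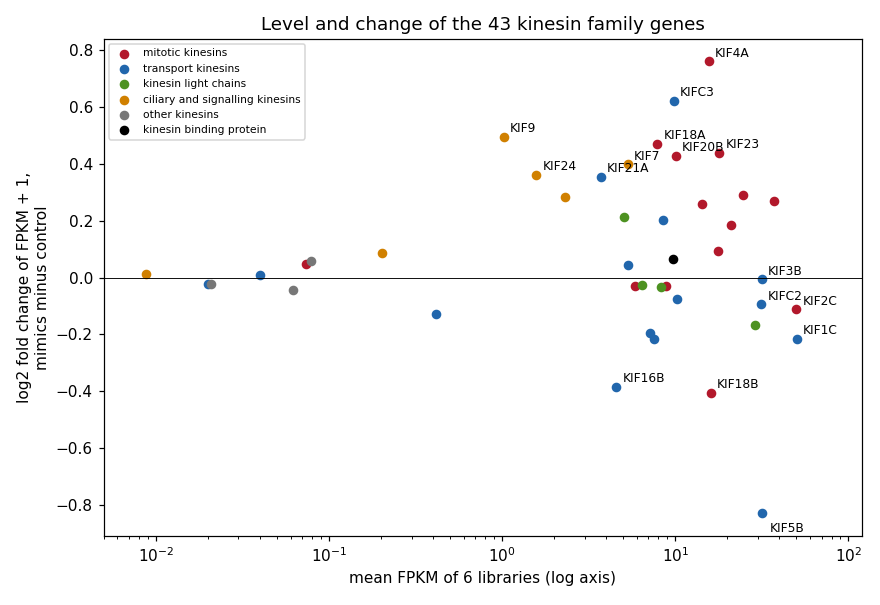
Mean FPKM over the 6 libraries (horizontal log axis) against the log2 fold change of FPKM + 1 (miR-204-5p mimics minus control mimics) of the 43 family genes, coloured by role. KIF5B combines a high level with the largest decrease, KIF4A and KIFC3 are the highest points, and genes under 1 FPKM lie near 0, where the added 1 holds the scale down.

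Side by side, the mitotic and transport kinesins differed in their medians, 0.22 and −0.08 on the log2 scale, and in their calls, 8 higher and 1 lower against 3 higher and 5 lower. The 15 transport kinesins summed to 187, 188 and 195 FPKM with miR-204-5p mimics against 221, 217 and 209 FPKM with control mimics, 88.1% of control. The mitotic sum was higher and the transport sum lower in every mimic library than in every control library. The mean transport sum differed by −25.6 FPKM (mimics minus control), to which KIF5B gave −18.3 FPKM, KIF1C −7.64 FPKM and KIFC3 4.56 FPKM. Genes of a role were listed from general knowledge with earlier results of these data known, and no test compared the lists.

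Of the 6 ciliary and signalling kinesins 4 rose, none fell and 2, KIF6 and KIF17, were not called at levels up to 0.302 FPKM. The called share was 66.7% against 40.8% of all genes, and the median log2 fold change was 0.32. KIF9, a motile cilium kinesin, measured 1.45, 1.25 and 1.41 FPKM with miR-204-5p mimics against 0.769, 0.633 and 0.645 FPKM with control mimics, 201% of control, so that it was above 1 FPKM in the mimic libraries and below it in the control libraries (log2 fold change 0.49, SE 0.0608, limma adjusted p = 0.00121). Of its listed transcript 569 bases (16.9%) are shared with the antisense gene KIF9-AS1. KIF7, which regulates Hedgehog signalling at the cilium tip, measured 5.77, 6.77 and 6.08 against 4.29, 4.80 and 4.30 FPKM (log2 fold change 0.40, SE 0.0754, limma adjusted p = 0.00672). It shares 398 bases (8.75%) with TICRR on the opposite strand.

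KIF24, which restrains cilium formation at the centriole, measured 1.95, 1.85 and 1.88 FPKM with miR-204-5p mimics against 1.04, 1.47 and 1.27 FPKM with control mimics (log2 fold change 0.36, SE 0.0795, limma adjusted p = 0.0119). KIF27, a relative of KIF7, measured 2.44, 2.90 and 2.58 against 1.81, 1.98 and 2.18 FPKM (log2 fold change 0.28, SE 0.0781, limma adjusted p = 0.0274). Groups did not overlap for any of the 4 that rose. The KIF27 call was lost without miR-204-5p mimics replicate 2 or 3 or control mimics replicate 1 or 2 (adjusted p from 0.0591 to 0.0832) and with quantile normalization (0.0728). The listed transcript of KIF27 shares 348 bases (7.48%) and 441 bases (9.48%) with the antisense genes AL354733.1 and AL354733.2. Overlaps of a smaller share in other members are not given.

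KIF12, KIF26A and KIF26B were each below 0.12 FPKM in every library and were not called, nor were any of them by an unadjusted p under 0.05. KIF1BP, which binds and blocks several kinesin motors, measured 9.22, 9.90 and 10.8 FPKM against 10.3, 7.63 and 10.8 FPKM with overlapping groups (adjusted p = 0.714).

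Of 13 measured partners and cargo adaptors of transport kinesins 3 rose and 5 fell, so 61.5% were called against 40.8% of all genes. A mean of at least 1 FPKM was reached by 12 of them, and 47.8% of genes at that level were called. RHOT1, the Miro protein that holds kinesin-1 to mitochondria, measured 6.52, 6.45 and 7.56 FPKM with miR-204-5p mimics against 11.9, 12.7 and 13.0 FPKM with control mimics, 54.5% of control (log2 fold change −0.79, limma adjusted p = 0.000389). RHOT2, its paralog, was among the 3 that rose, and is named after its value was seen. MAPK8IP1, a JNK scaffold that binds kinesin light chains, was at 4.19 ± 0.228 against 2.18 ± 0.215 FPKM (log2 fold change 0.71, adjusted p = 0.000688). MAPK8IP3, another JNK scaffold, fell by 0.31 on the log2 scale (limma adjusted p = 0.02001). Its call was lost without miR-204-5p mimics replicate 1 or 2 or control mimics replicate 1 or 3 (adjusted p up to 0.0650). PLEKHM2 and SPAG9, adaptors that were also called lower and are named after their values were seen, lost their calls in 4 and 5 of the 6 fits that left out a library (adjusted p up to 0.0720 and 0.136), and SPAG9 also with eBayes without trend (0.0598). PLEKHM2 kept its call without miR-204-5p mimics replicate 1 or control mimics replicate 1 and SPAG9 without control mimics replicate 3, and 2 or 3 adaptors were called lower in each of these fits.

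Cytoplasmic dynein 1 and its cofactor dynactin, which walk the opposite way to most kinesins, had 6 of 21 genes higher and 3 lower, with a median log2 fold change of 0.09. The called share of 42.9% was near the 40.8% of all genes, of which 23.9% were called higher and 16.8% lower. All 21 had a mean of at least 1 FPKM, a level at which 47.8% of genes were called. DYNC1LI2, a light intermediate chain that binds cargo adaptors, was at 37.5 ± 1.16 against 60.0 ± 1.85 FPKM (log2 fold change −0.66, limma adjusted p = 0.000108). DYNLT1, a light chain, and ACTR1B, a subunit of the dynactin filament, rose by 0.51 and 0.38 on the log2 scale (adjusted p = 0.000704 and 0.00152). DCTN4, a dynactin subunit, measured 8.66, 19.98 and 7.60 FPKM with miR-204-5p mimics against 23.8, 25.6 and 24.9 FPKM with control mimics (log2 fold change −1.10, adjusted p = 0.0332). The middle of these mimic libraries lay near the controls, and the call was lost without miR-204-5p mimics replicate 1 or 3 or any one control library (adjusted p from 0.0761 to 0.101). Without miR-204-5p mimics replicate 2 or control mimics replicate 2, 3 genes were called higher.

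Seed matches in the 3'UTR were set against the calls. In the longest protein-coding 3'UTR of each gene 14 of 43 members (32.6%) held a match, 3 of them an 8mer, 5 a 7mer-m8 and 6 a 7mer-A1, against 27.1% of 14664 genes with a 3'UTR. Of the 14 members 3 rose, 4 fell and 7 were not called, and of the 29 without a match 12 rose and 2 fell. The median log2 fold changes were −0.02 and 0.08. Over all genes 27.0% of those with a match and 13.4% of those without were called lower, with medians of −0.03 and 0.06.

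Matches were in 8 of 15 transport kinesins (53.3%) and 2 of 14 mitotic kinesins (14.3%). None of these 3'UTR shares was corrected for 3'UTR length. The longest 3'UTR had 5016 bases among the transport kinesins (KIF1B) and 1891 among the mitotic kinesins (KIF14), and a longer 3'UTR holds more matches by length alone. Of the transport kinesins with a match 4 fell (KIF16B, KIF1C, KIF1B and KIF3C, whose sites are printed above), KIF3A rose, and KIF5A, KIF5C and KIF21B were not called. KIF5C held an 8mer in its 3'UTR at chr2:149025160-149025167. KIF3A, with a 7mer-A1 and a 7mer-m8 match in exon 17, rose although it held a match. So did KIF9 and the mitotic kinesin KIF20A, each with a 7mer-m8, that of KIF20A outside its listed transcript. KIF5B and KIF18B fell without a match in the 3'UTR. The 6 bases AAGGGA, alone or within a longer match, were in 16 of 43 members and in 39.4% of all genes with a 3'UTR. Among the members only KIF5B and KIF7 held them without a longer match in the 3'UTR. In the coding sequence, searched after the values had been seen, 19 of 43 members (44.2%) held a 7- or 8-base match against 20.9% of all genes, without correction for the length of the coding sequence. The part of direct pairing in any of these changes was not tested.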

How the data were processed

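Total RNA of UM-SCC1 cells was sequenced by the authors from Illumina TruSeq RNA libraries on an Illumina HiSeq instrument. The deposited table gives FPKM values that the authors computed, with 1 value per gene and library, and HISAT2, StringTie and hg38 are named in the submitters' processing notes. The annotation and the strandedness are not given in the sources used here, so reads of overlapping antisense genes cannot be told apart, and 1 transcript is listed per gene, without a statement of whether its length alone underlies the FPKM. Deposited log ratios, p-values and FDR are the authors' own edgeR comparison and were not used.

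Because the values are no counts, log2(FPKM + 1) was tested with limma's lmFit and eBayes with trend (limma 3.58.1, R 4.3.3; two-sided, Benjamini-Hochberg over 14959 genes, threshold 0.05, no filter). The fit was tested on simulated data. Depth was inferred from whole multiples of a step (tolerance 0.01) in genes with 1 transcript: 18.6% to 22.4% of low values were whole, against 1.61% to 1.66% at other steps, so counts were not recovered. Listed transcripts matched GENCODE 29 for 14951 genes, 14847 of them with the same start and end. Other steps used Python 3.11.15 and pandas 2.3.3.

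The members, the gene lists and the rule for names were chosen with earlier results of these data known. Every family gene could be named. Library values were given for members with an adjusted p under 0.05 and a mean of at least 1 FPKM or a log2 fold change of at least 0.5 in size, and for KIF11, KIF5B, KIF3A and KLC1, and a few others were added. From each partner list CENPE, KIFAP3 and at most 4 called genes with the largest changes were named, with exceptions stated, and 1 gene in the counts is not reported here by name. Alternatives were a pseudocount of 0.1, a mean of at least 1 FPKM, equal medians, quantile normalization, eBayes without trend, each library left out, a block for the replicate number, and the 3'UTR of the listed transcript.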

Additional observations from a re-analysis of the deposited data

How the results depend on the processing

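Of 21 called kinesin family genes 16 (12 higher and 4 lower) were called under every alternative run, the exceptions being KIF11, KIF3C, KIF1B, KIF3A and KIF27. Over 507 pairs of a member and an alternative, 458 kept the direction and side of the threshold, 31 lost a call, 6 gained one and 12 changed sign. With scaling to equal medians or quantile normalization 2 mitotic kinesins were called lower, and with equal medians 5 dynein and dynactin genes. When each library was left out, the count of transport kinesins called lower was 3 to 5, that of mitotic kinesin partners called lower 2 to 4, that of transport partners and adaptors called lower 2 to 3, and that of dynein and dynactin genes called higher 3 to 6. No scaling moved the median of all genes by more than 0.1 on the log2 scale.

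No pairing of the samples by replicate number was seen. Deviations from the group means correlated at −0.040, −0.021 and −0.108 between equal numbers and from −0.069 to 0.110 between other pairs. With 3 libraries per group these correlations cannot show whether libraries of equal number were handled together. With the replicate number as a block 3 transport kinesins and 3 of their partners and adaptors were called lower, 13 family genes were called higher and 4 lower, and 5096 genes were called in all against 6098. The block ended the calls of KIF11 (limma adjusted p = 0.108), KIF3C (0.0760), KIF1B (0.112) and KIF3A (0.0808), and among the named partners those of CIT (0.0507), PLEKHM2 (0.0579) and PLK1 (0.0794).

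The members whose sign changed were not called in any of these fits. When each library was left out, the log2 fold change ranged from −0.067 to 0.0215 for KIF2A, from −0.039 to 0.043 for KIF3B, from −0.016 to 0.030 for KIF21B, from −0.092 to 0.083 for KLC3, from −0.063 to 0.015 for KLC1 and from −0.073 to 0.15 for KIF1BP. With quantile normalization KIF21B was at −0.0022 and KIF13B at −0.0069. The cause was not tested. Members under 0.1 FPKM rest on few fragments, so differences in them were not detectable at this depth. The 3'UTR of the listed transcript held a match in 11 members.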
